A study of Mus musculus with 12 samples.

Results

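The comparison described here is the effect of a second intratumoral dose of interleukin-2 and interleukin-12 minus the effect of the first dose. It used all 12 tumors of the series, 3 in each of 4 groups, as their titles assign them. Every mouse was C57BL/6 (Taconic) and carried a flank tumor of B16F10, a mouse melanoma cell line, that was 6 days old when it was first injected. The saline tumors received saline and were removed 2 days later. The early single-dose tumors received 1 dose of the cytokines, made as collagen-binding fusion proteins, and were removed 2 days later. The late single-dose tumors received the same 1 dose and were removed 8 days later. The repeat-dose tumors received a further dose on day 6 and were removed 2 days after it, which is 8 days after the first injection. The first-dose effect was early single-dose minus saline, and the second-dose effect was repeat-dose minus late single-dose. The late single-dose tumors therefore stand for the level without the second dose, and the saline tumors for the level without the first, both at the time of collection. No tumor was taken at the time of a dose. The starting level below means the level of these comparison groups and not a measured level before the dose.

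The difference of the 2 effects can be written as 2 parts that share no tumor. The starting-level difference is late single-dose minus saline, and the after-dose level difference is repeat-dose minus early single-dose. The second part minus the first is the difference of the dose effects. A negative difference can thus be made of a raised start, of a lower level after the second dose, or of both. No saline tumor was collected at 8 days among the tumors analysed. In the starting-level difference the earlier dose and the age of the tumor therefore cannot be told apart. The after-dose level difference likewise compares tumors taken 8 and 2 days after the first injection. There the number of doses and the age of the tumor cannot be told apart either.

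Interleukin-12 acts on T cells and natural killer (NK) cells, in which it induces interferon-gamma, and interleukin-2 drives the growth and the cytotoxic activity of the same cells. Interferon-gamma signals through Janus kinases and induces the transcription factor Irf1, and the pathway switches on antigen-presentation genes, guanylate-binding proteins, the chemokines Cxcl9 and Cxcl10 and the checkpoint ligand Cd274 (PD-L1). Socs1, itself a target of this pathway, feeds back to inhibit the kinases. The collagen-binding form holds the injected cytokines in the tumor matrix.

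RNA from fixed tumor sections was counted with a probe panel of 750 immune and cancer genes and 20 housekeeping genes. Total counts ran from 392596 to 1232726 per tumor, and repeat-dose tumor C had the lowest. The geometric mean of the housekeeping probes averaged 2680 in the saline, 1716 in the early single-dose, 1467 in the late single-dose and 919 in the repeat-dose tumors, while the spiked positive controls stayed between 1266 and 1748 in all 12. A scaled count below is a count divided by the tumor's housekeeping mean relative to the 12 tumors, so a scaled count is a level relative to those 20 genes. Of the 750 genes, 729 were above background in at least 3 tumors and were tested. Only 2 of 9 listed melanocyte markers, S100b and Mcam, are on the panel, and their summed scaled count ran from 2283 to 3140 in saline and from 2494 to 2691 in repeat-dose tumors. In bulk tumor RNA, fewer cells of a type and less RNA per cell cannot be told apart.

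Gbp5, Irf1 and Psmb8 had a large negative difference that did not pass the adjusted test. Their promoters are shown because they carry matches to the letters of elements through which interferon signals are read. They run from 250 bases before to 50 bases after the start of the gene, 5′ to 3′, from RefSeq on GRCm38.p6. They lie on chromosomes 3, 11 and 17, labeled chr3.0, chr11.0 and chr17.0 below. Capitals mark matches on either strand to TTCNNNGAA, the letters of a gamma-activated site, or to GAAANNGAAA, those of an interferon response element, which do not overlap in these windows.
Gbp5 promoter, chr3.0:142496684-142496983, plus strand: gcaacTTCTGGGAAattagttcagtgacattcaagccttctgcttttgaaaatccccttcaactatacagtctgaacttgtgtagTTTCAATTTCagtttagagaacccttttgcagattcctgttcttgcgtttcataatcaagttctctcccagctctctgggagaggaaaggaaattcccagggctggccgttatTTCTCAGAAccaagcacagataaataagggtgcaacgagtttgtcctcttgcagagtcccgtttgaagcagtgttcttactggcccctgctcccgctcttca
Irf1 promoter, chr11.0:53769764-53770063, plus strand: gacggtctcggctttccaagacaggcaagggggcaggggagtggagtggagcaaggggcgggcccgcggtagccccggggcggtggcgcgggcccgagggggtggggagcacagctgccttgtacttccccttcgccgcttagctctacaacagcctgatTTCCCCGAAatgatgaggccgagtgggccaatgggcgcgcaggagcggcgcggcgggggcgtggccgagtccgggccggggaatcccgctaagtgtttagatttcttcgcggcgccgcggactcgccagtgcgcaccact
Psmb8 promoter, chr17.0:34197945-34198244, plus strand: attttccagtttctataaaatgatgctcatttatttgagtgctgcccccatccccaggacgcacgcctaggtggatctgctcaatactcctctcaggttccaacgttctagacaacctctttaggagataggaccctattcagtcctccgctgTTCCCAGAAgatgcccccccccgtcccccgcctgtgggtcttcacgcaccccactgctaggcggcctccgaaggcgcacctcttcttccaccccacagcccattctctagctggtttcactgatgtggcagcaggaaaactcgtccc
The Gbp5 window held 2 matches to the first motif and 1 to the second, and the Irf1 and Psmb8 windows held 1 match each to the first. Among the 76 genes described below as having a negative difference, 57 had a promoter in the table, and 24.6% of these held TTCNNNGAA against 12.3% of 535 tested genes and 8.47% of 27025 promoters of all genes. GAAANNGAAA was held by 21.1%, 8.22% and 3.49% of the same sets. Of the other windows searched for named genes, that of Gzma held 1 match to the second motif, and those of Cxcl9, Prf1, Psmb9, Psmb10, H2-DMb1, Tcf7 and Kdr held neither. A match is a run of letters and not a shown binding site. Whether these shares differ was not tested. All 76 genes are also among the 222 that the first dose raised, described below, and no share was computed for those 222.

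No single gene passed the test of the difference, and most genes with a small unadjusted p were negative. In edgeR's quasi-likelihood fit 0 of 729 genes (0%) had an adjusted p under 0.05, and the smallest adjusted p was 0.0780, of Tcf7. At an unadjusted p under 0.05 there were 79 genes, 10.8% of those tested, of which 76 (10.4%) were negative and 3 (0.412%) were positive. DESeq2 with the same housekeeping scaling called 18 genes, all negative, DESeq2 with its own size factors called 37, of which 35 were negative, and limma called 0. Without saline tumor A, the edgeR fit called 7 genes, all negative. The median difference over all 729 genes was -0.22 on the log2 scale, and 505 genes were below 0. This lean depended on the scaling and on 1 tumor, since the median was 0.13 with total-count scaling, 0.04 with DESeq2's own size factors, within 0.01 of 0 with TMM scaling or without late single-dose tumor C, and -0.45 with positive-control scaling.

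The first dose raised 222 genes (30.5%) and lowered 5 (0.686%) in the edgeR fit, by the same threshold of 0.05 on the adjusted p. The split of this first-dose effect depended on the scaling, with 143 genes higher and 54 lower under TMM scaling and 113 higher and 161 lower under total-count scaling, so a rise or fall is meant relative to the housekeeping probes. The second dose changed 0 genes (0%) by that rule, with 77 genes (10.6%) at an unadjusted p under 0.05, 72 of them higher (9.88%), and with 3 called by DESeq2 with housekeeping scaling, 10 by DESeq2 with its own factors, 5 in each direction, and 0 by limma. These 2 effects share no tumor. Of the 222 genes that the first dose raised, 216 (97.3%) had a second-dose effect above 0, with a median of 0.75 on the log2 scale. Of the 502 genes that passed in neither direction after the first dose, 80.1% were above 0 after the second, with a median of 0.26. These shares hold for the housekeeping scaling, under which the median second-dose effect of all genes was 0.41, while it was 0.01 with TMM, -0.21 with total-count and -0.23 with positive-control scaling. Across the 729 genes the 2 effects had a Spearman rho of 0.74 and a Pearson r of 0.74, a description over genes that were measured in the same tumors with 1 scaling per tumor. The median first-dose effect of the 222 genes was 1.87, a value that their choice by that effect makes large. Leaving out late single-dose tumor C brought 100 second-dose calls, and leaving out saline tumor B, saline tumor C or early single-dose tumor B brought the first-dose calls to 89, 107 and 121.

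**Figure D1:**
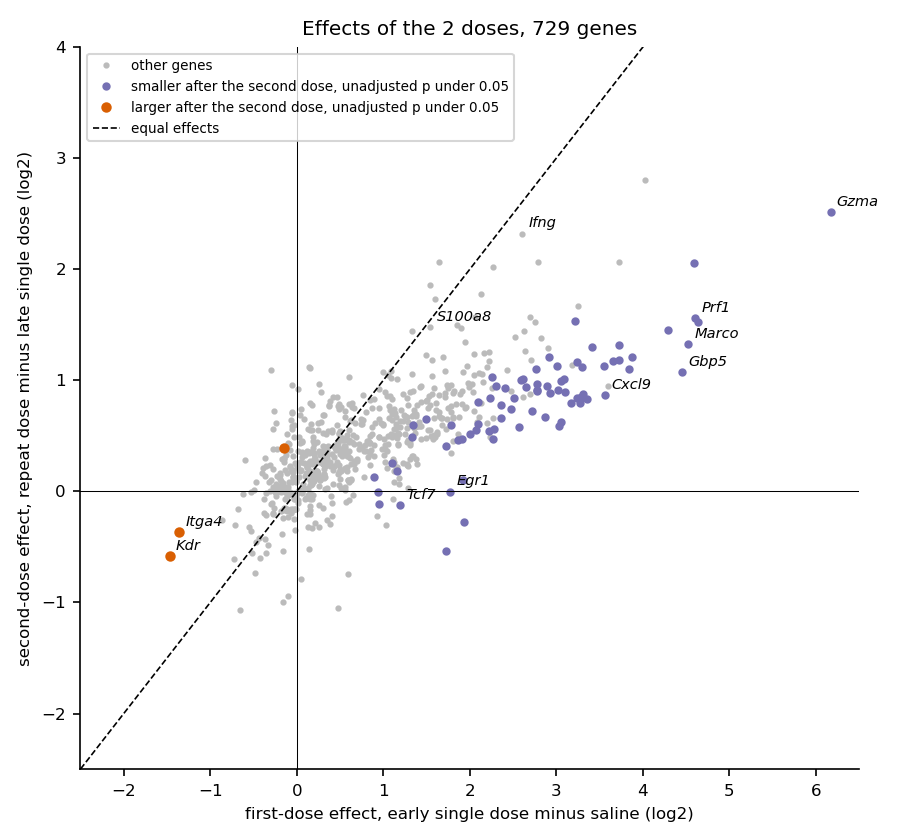
Second-dose effect (vertical axis) against first-dose effect (horizontal axis) for the 729 genes, both as log2 differences, with the line of equal effects dashed. The 76 purple genes lie to the right of and below that line, with medians of 2.77 on the horizontal and 0.85 on the vertical axis, and the 3 orange genes lie above it.

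More genes passed the test of the starting levels than that of the levels after the doses. Late single-dose tumors exceeded saline tumors in 285 genes (39.1%) and were lower in 1 (0.137%), Itga4, when the adjusted p was held under 0.05. This starting-level difference split into 135 higher and 65 lower genes under TMM scaling and into 110 higher and 140 lower under total-count scaling, and 39 genes passed with positive-control scaling. Leaving out saline tumor B, saline tumor C or late single-dose tumor C gave 86, 108 and 107 calls in both directions together. Repeat-dose tumors differed from early single-dose tumors in 0 genes (0%) in the edgeR fit. At an unadjusted p under 0.05, 169 genes (23.2%) were higher and 7 (0.96%) lower in repeat-dose tumors, DESeq2 with housekeeping scaling called 79 genes and limma called 2 with a pseudocount of 1. Omitting late single-dose tumor C or tumor B, or repeat-dose tumor B, gave 49, 27 and 14 calls of this level difference, and omitting saline tumor A or C gave 6 and 8. Late single-dose and saline tumors are not part of this difference and enter its test only through the estimate of the spread that the 4 groups share. Without any 1 of the late single-dose or saline tumors just named, its median over all genes stayed at 0.49, and without repeat-dose tumor B it was 0.59. In the 76 genes with a negative difference, which were picked by that difference and so serve only as a description, the median starting-level difference was 2.47 and the median after-dose level difference 0.43. The starting part was the larger in 74 of the 76, and the exceptions were Egr1 and Tcf7. The after-dose level difference was below 0 in 20 of the 76, beside 107 of all 729 genes.

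Genes induced by interferon-gamma were frequent among the negative differences. The lists here and below were chosen with earlier results of these data known, so their counts are a description only. All 26 tested members of the interferon-gamma response list had a difference below 0, beside 505 of all 729 genes. Their median was -2.08 against -0.22 for all genes. None passed the edgeR test of the difference, and 18 of the 26 had an unadjusted p under 0.05. That held for 10.4% of all genes and for 76 of the 222 genes that the first dose raised. All 222 had a difference below 0, and all 76 negative genes were among them. The first-dose effect is a term of the difference. Counts of negative members, here and in the lists below, therefore follow in part from how many members the first dose raised. DESeq2 with housekeeping scaling called 10 members, out of its 18 calls among all tested genes. The first dose raised 24 of the 26 (median 3.04), beside 30.5% of all genes, and the starting level was higher in 25 (median 2.68), beside 39.1%. The median second-dose effect was 0.88 and the median after-dose level difference 0.60. The latter was above 0 in 25 of 26 members, beside 622 of all 729 genes. With positive-control scaling, under which fewer genes of the whole panel passed as given above, the starting-level calls of the list were 12 in place of 25.

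Cxcl9, a chemokine that attracts activated T cells, had scaled counts of 687, 492 and 255 in the saline tumors and 4405, 7112 and 5419 in the early single-dose tumors. In the late single-dose tumors it was at 4236, 2546 and 9034, and in the repeat-dose tumors at 13721, 9453 and 5628. All 9 treated tumors lay above all 3 saline tumors, and the treated groups overlapped one another. Such an order was common on the panel. Of all 729 genes, 364 had all 3 early single-dose tumors above saline, and 310 had all 3 late single-dose tumors above saline. In 255 genes all 3 repeat-dose tumors lay above the early single-dose tumors, and in 22 below them. The first-dose effect was 3.56 ± 0.57 (log2, SE; adjusted p = 0.00316) and the second-dose effect 0.87 ± 0.52 (adjusted p = 0.434). The difference of -2.70 ± 0.74 had an adjusted p of 0.327 and a 95% interval from -4.33 to -1.07. The starting-level difference was 3.46 ± 0.56 (adjusted p = 0.0069), and the after-dose level difference was 0.77 ± 0.51 (adjusted p = 0.356), with an interval from -0.37 to 1.91.

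Gbp5, a guanylate-binding protein of the interferon-induced antimicrobial response, had the same order. Its scaled counts were 150.3, 80.0 and 44.7 in saline tumors, 1575, 2722 and 1708 in early single-dose tumors, 1079.8, 514 and 3277 in late single-dose tumors and 4008, 3744 and 2476 in repeat-dose tumors. Late single-dose tumor C was the highest of its group and lay within the repeat-dose range, as it did for Cxcl9. The difference was -3.38 ± 0.90 (adjusted p = 0.327), made of a starting-level difference of 4.15 ± 0.71 (adjusted p = 0.0069) and an after-dose level difference of 0.77 ± 0.62 (adjusted p = 0.435). Without late single-dose tumor C the starting-level difference was 3.12 and the difference of the dose effects -2.35.

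Irf1, a transcription factor of the interferon response, had a difference of -2.11 ± 0.64, with 3.02 ± 0.48 after the first dose and 0.91 ± 0.45 after the second. Zbp1, a sensor of nucleic acids that is induced by interferon, had 3.84 ± 0.59 and 1.10 ± 0.53, and its after-dose level difference was near 0, at -0.05 ± 0.53. Cd274 had a difference of -2.54 ± 0.82, with a starting-level difference of 3.66 ± 0.63 and an after-dose level difference of 1.12 ± 0.58. For each of these genes the first-dose effect and the starting-level difference passed in the edgeR fit, and the starting level of Irf1 and Zbp1 did not with positive-control scaling (adjusted p = 0.0706 and 0.0565).

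Ifng itself had a second-dose effect close to the first. It was at 26.0, 17.1 and 26.9 in saline, 122, 193 and 113 in early single-dose, 78.1, 40.9 and 190.1 in late single-dose and 717, 282 and 538 in repeat-dose tumors. The 3 repeat-dose tumors were above all 9 others. Its first-dose effect was 2.61 ± 0.56 (adjusted p = 0.00761), its second-dose effect 2.32 ± 0.54 (adjusted p = 0.408, unadjusted p = 0.00146), and the difference -0.29 ± 0.73, with an interval from -1.91 to 1.34. Its starting level was higher by 2.13 ± 0.55 (adjusted p = 0.0166, and 0.0701, 0.0518 and 0.0721 without saline tumor B, saline tumor C or late single-dose tumor C). The after-dose level difference was 1.84 ± 0.53 (adjusted p = 0.103).

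**Figure D2:**
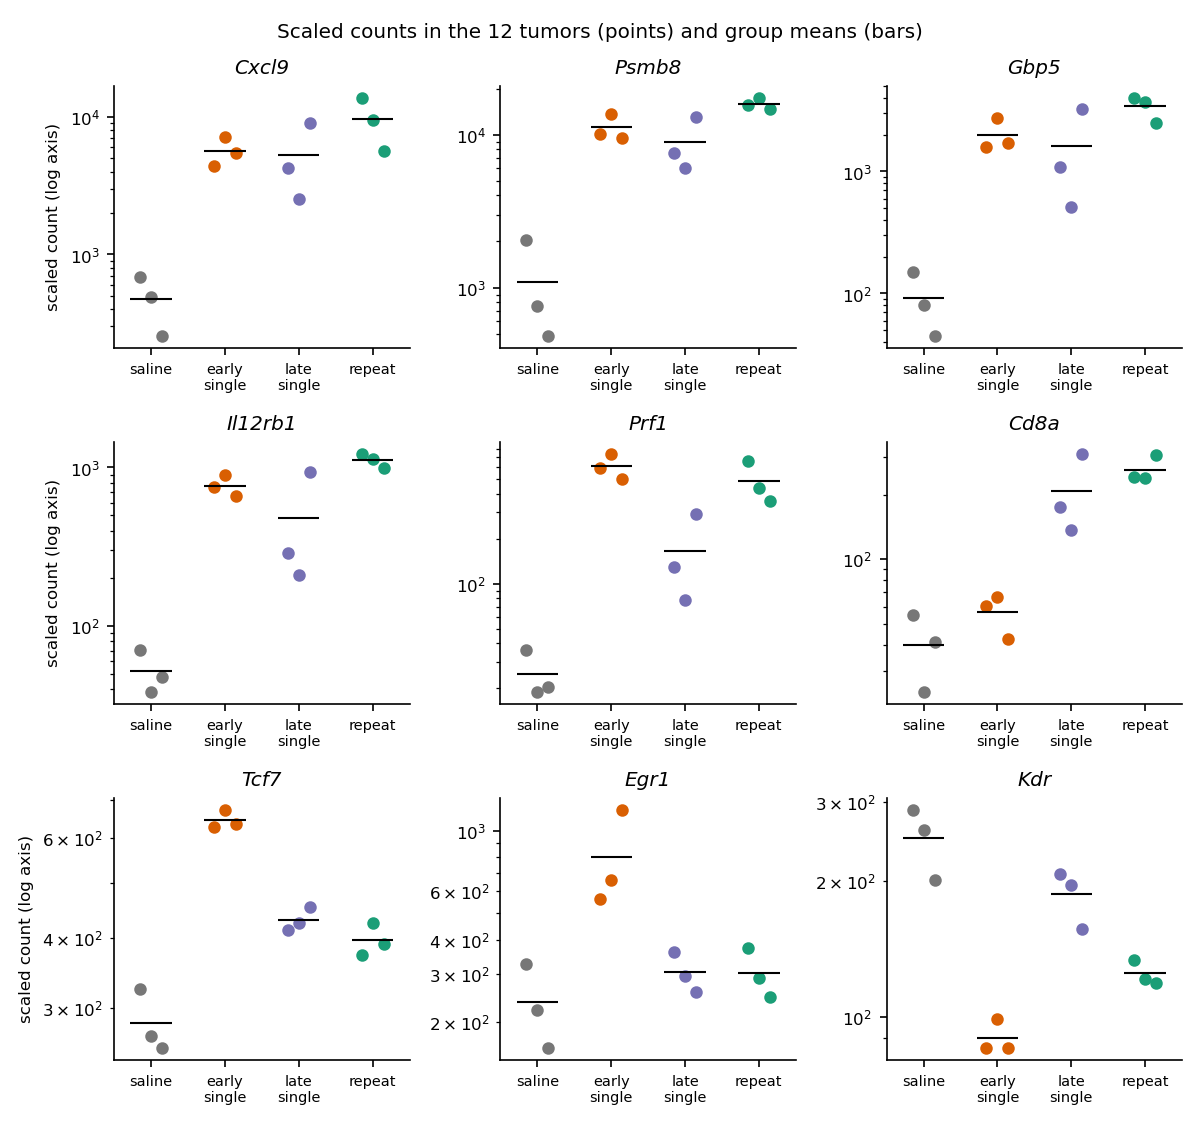
Scaled counts (log axes) of 9 genes in the 12 tumors, with points for tumors A to C from left to right in each group and a bar at the group mean. In Cxcl9, Psmb8, Gbp5, Il12rb1 and Prf1 the late single-dose tumors lie far above saline. Tcf7 and Egr1 are lower in every repeat-dose tumor than in every early single-dose tumor, and Kdr is lowest in the early single-dose tumors.

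Antigen-presentation genes of both classes had negative median differences. In the class I list, 11 of 15 tested members rose after the first dose (30.5% of all genes) and the same number had a higher starting level (39.1% of all genes), or 6 with positive-control scaling. The median difference was -1.86, and 11 members had an unadjusted p under 0.05 and a negative sign for it, beside 10.4% of all genes. In the class II list, 7 of 10 rose after the first dose (3 without saline tumor B) and 9 had a higher starting level, with a median difference of -1.92 and 4 members negative at that p. The median after-dose level difference was 1.49 in the class II and 0.52 in the class I list, beside 0.49 for all genes.

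Psmb8, a catalytic subunit of the immunoproteasome that cuts proteins into peptides for class I molecules, was at 2042, 754 and 481 in saline tumors and at 10149.7, 13665 and 9559.5 in early single-dose tumors. It was at 7612, 6083 and 13055 in late single-dose tumors and at 15674, 17362 and 14681 in repeat-dose tumors. The repeat-dose tumors were the highest of all 12, and the late single-dose tumors lay near the early ones, with tumor C between 2 of them. The difference was -2.51 ± 0.69 (adjusted p = 0.327), with a starting-level difference of 3.03 ± 0.52 (adjusted p = 0.0069) and an after-dose level difference of 0.52 ± 0.48 (adjusted p = 0.492). Its partner subunits Psmb9 and Psmb10 had differences of -2.44 ± 0.69 and -2.37 ± 0.61.

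H2-DMb1, a chain of the molecule that loads peptides onto class II, was at 217, 102 and 76.7 in saline, 1125, 1610.0 and 1089.9 in early single-dose, 1077, 717 and 2114 in late single-dose and 2248, 2309 and 2226 in repeat-dose tumors. The 3 repeat-dose values lay close together, above all others. The difference was -2.48 ± 0.63 (adjusted p = 0.327). The first-dose and starting-level changes, which subtract the same saline tumors, were near-equal at 3.27 ± 0.48 and 3.30 ± 0.48 (adjusted p = 0.00316 and 0.0069). Ciita, the master activator of class II genes, had a difference of -2.40 ± 0.79 and an after-dose level difference of 0.69 ± 0.55. In Cxcl9, Gbp5, Psmb8, H2-DMb1 and Il12rb1 the first-dose rise and the raised start passed in all 24 other settings tried.

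Among the molecules that killer lymphocytes release, the first dose raised 9 of 10 tested cytotoxic effectors, beside 30.5% of all genes, and 9 had a higher starting level, beside 39.1%. That second count was 3 without saline tumor B and 5 each without saline tumor C and late single-dose tumor C, and 2 with positive-control scaling. The median difference was -1.80, and 7 members were negative at an unadjusted p under 0.05, beside 10.4% of all genes. Prf1, the pore-forming perforin, was at 36.1, 18.9 and 20.3 in saline, 594, 736 and 499.9 in early single-dose, 129, 77.8 and 290.2 in late single-dose and 665, 438 and 358 in repeat-dose tumors. No late single-dose tumor reached the early or the repeat-dose range. The difference was -3.04 ± 0.66 (adjusted p = 0.305), and the first-dose effect of 4.60 ± 0.52 (adjusted p = 0.00276) stood beside a second-dose effect of 1.56 ± 0.46 (adjusted p = 0.425, unadjusted p = 0.00646). Its starting level was higher by 2.72 ± 0.49 (adjusted p = 0.0069, and 0.0522 with positive-control scaling), and its after-dose level differed by -0.32 ± 0.45.

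Gzma, a granzyme that perforin delivers into target cells, had the largest first-dose effect of the genes named here, 6.17 ± 0.93 (adjusted p = 0.00316). The early single-dose tumors were at 3941, 6543 and 5532 and the repeat-dose tumors at 8751, 5449 and 2136, against 146, 60.6 and 16.3 in saline and 998, 368 and 1503 in late single-dose tumors. The after-dose levels overlapped and differed by 0.03 ± 0.74, with an interval from -1.61 to 1.66. The starting-level difference of 3.69 ± 0.83 had an adjusted p of 0.00937, and of 0.0522 without saline tumor B. Gzmb had a difference of -2.54 ± 0.94 and an after-dose level difference of 0.03 ± 0.65. Its raised start, 2.57 ± 0.69 (adjusted p = 0.0177), did not pass without saline tumor B, saline tumor C or late single-dose tumor C (adjusted p = 0.0739, 0.0667 and 0.0884).

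Among the receptors for the injected cytokines, Il12rb1, the shared chain of the interleukin-12 and interleukin-23 receptors, was at 70.8, 38.3 and 47.8 in saline, 755, 891 and 662 in early single-dose, 289, 209 and 941 in late single-dose and 1217, 1125 and 986 in repeat-dose tumors. The repeat-dose tumors were above every other tumor, and late single-dose tumor C was far above its group. Its difference was -2.67 ± 0.69 (adjusted p = 0.327), with a starting-level difference of 3.20 ± 0.52 (adjusted p = 0.0069). Il2rb, the signaling chain shared by interleukin-2 and interleukin-15 receptors, had a difference of -2.18 ± 0.72 and a raised start of 2.29 ± 0.53 (adjusted p = 0.0103, and 0.0548 without saline tumor B).

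Il2ra, the high-affinity chain of the interleukin-2 receptor, had a late single-dose level that did not differ from saline in the adjusted test. It was at 85.5, 58.9 and 18.3 in saline, 689, 1257 and 683 in early single-dose, 131, 60.9 and 269.9 in late single-dose and 1719, 665 and 818 in repeat-dose tumors. Saline and late single-dose tumors overlapped (starting-level difference from 0.06 to 2.94 by its interval, adjusted p = 0.0905), and so did both groups taken 2 days after a dose. Its first-dose effect was 4.02 ± 0.71 (adjusted p = 0.00336) and the second-dose effect 2.80 ± 0.67 (adjusted p = 0.408, unadjusted p = 0.00168), and the difference of -1.22 ± 0.89 had an interval from -3.20 to 0.76. Socs1 had 3.41 ± 0.56 after the first dose and 1.30 ± 0.52 after the second, with a raised start of 3.00 ± 0.56 (adjusted p = 0.0069). Of the 24 tested genes listed for interleukin-2 and interleukin-12, their receptors and their signaling, 22 had a difference below 0, as had 505 of all 729 genes, with a median of -0.73, and 6 were negative at an unadjusted p under 0.05, beside 10.4% of all genes.

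**Figure D3:**
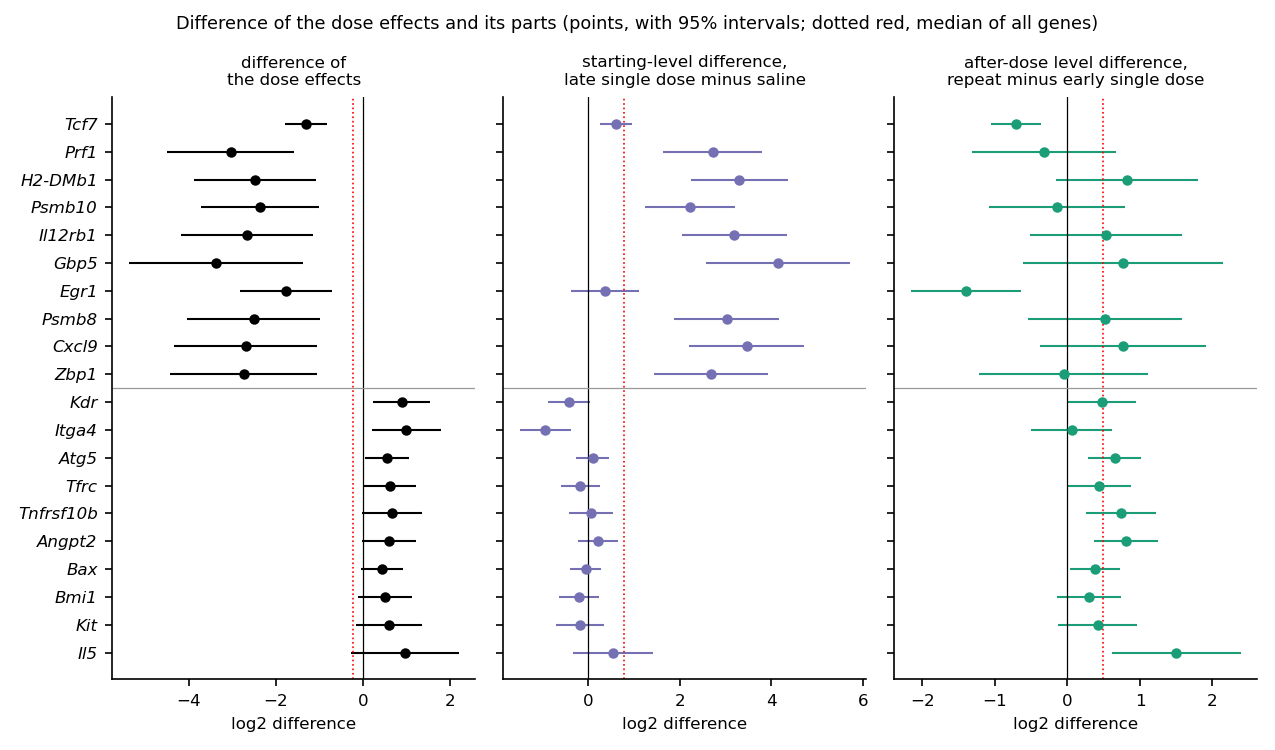
Difference of the dose effects (left), starting-level difference (middle) and after-dose level difference (right) on the log2 scale for the 10 negative genes above the grey line and the 10 positive genes below it, ranked by p, with 95% intervals and the median of all 729 genes as a dotted line. In the middle panel Prf1, H2-DMb1, Psmb10, Il12rb1, Gbp5, Psmb8, Cxcl9 and Zbp1 lie between 2.22 and 4.15, while Tcf7 and Egr1 are the ones whose after-dose interval lies wholly below 0.

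Marker sums of T cells and of NK cells were compared beside these genes. The summed scaled count of the T cell markers Cd3d, Cd3e and Cd3g ran from 163 to 372 in saline, from 350.5 to 539 in early single-dose, from 529.9 to 1613 in late single-dose and from 1207 to 1394 in repeat-dose tumors. That of the NK markers Ncr1 and Klrb1c ran from 80.6 to 136, from 271 to 340.4, from 132 to 220.5 and from 148 to 309. Late single-dose tumors, in which most cytotoxic genes were above saline, thus held more T cell marker RNA than saline tumors, and early single-dose tumors held more NK marker RNA. The part of these markers in the differences above was not tested.

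Ncr1, the NK receptor NKp46, had 191, 223 and 277 in early single-dose tumors and 69.5, 41.2 and 37.6 in saline tumors. It had 159, 80.8 and 134 in late single-dose tumors and 204, 236 and 102 in repeat-dose tumors. Ncr1 had a first-dose effect of 2.22 ± 0.39 (adjusted p = 0.00336), a second-dose effect of 0.55 ± 0.38 (adjusted p = 0.486) and a difference of -1.68 ± 0.53 (adjusted p = 0.339). The raised start of 1.34 ± 0.38 (adjusted p = 0.0215) did not pass under TMM, total-count or positive-control scaling (adjusted p = 0.218, 0.363 and 0.46). It also did not pass without saline tumor B or C or late single-dose tumor A or C (adjusted p = 0.0813, 0.0816, 0.066 and 0.0704).

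Cd8a, a chain of the coreceptor of cytotoxic T cells, had no such difference. It was at 54.8, 24.0 and 41.2 in saline, 60.6, 66.5 and 42.4 in early single-dose, 174, 137 and 309 in late single-dose and 241, 238 and 306 in repeat-dose tumors. Both groups taken at 8 days lay above both groups taken at 2 days. The starting level was higher by 2.37 ± 0.38 (adjusted p = 0.0069, and 0.0538 with positive-control scaling), and the after-dose level by 2.21 ± 0.38 (adjusted p = 0.0543, unadjusted p = 0.000159). The parts nearly cancelled, and the difference was -0.16 ± 0.52, with an interval from -1.31 to 0.99. Cd4, the helper coreceptor, had a difference of -0.07 ± 0.61 and a starting-level difference of 0.55 ± 0.42 that did not pass (adjusted p = 0.34).

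Tcf7 and Egr1 were the exceptions among the 76 genes with a negative difference, in that the after-dose level made the larger part with housekeeping scaling. Tcf7 encodes TCF1, a transcription factor of naive, memory and stem-like T cells that is also needed for NK development. It was at 325, 268 and 255 in saline, 626, 672 and 635 in early single-dose, 413, 425 and 452 in late single-dose and 373, 424 and 389.9 in repeat-dose tumors. Every early single-dose tumor was above every other tumor, and the late single-dose and repeat-dose groups overlapped. The first-dose effect was 1.19 ± 0.16 (adjusted p = 0.00316), the second-dose effect -0.12 ± 0.16 (adjusted p = 0.678) and the difference -1.31 ± 0.22 (adjusted p = 0.0780), with an interval from -1.80 to -0.82. The after-dose level differed by -0.70 ± 0.16 (adjusted p = 0.0619, unadjusted p = 0.000955) and the starting level by 0.61 ± 0.16 (adjusted p = 0.0156).

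The difference of Tcf7 was below 0 in all 24 other settings, from -1.56 to -1.01, and passed in 5 of them. Its separate parts depended on the scaling. With TMM, total-count and positive-control scaling the first-dose effect did not pass (adjusted p = 0.111, 0.474 and 0.264), nor with the size factors of DESeq2 (adjusted p = 0.103), and in these 4 settings the starting-level difference turned below 0, to as low as -0.33. The starting-level call was also lost without saline tumor B or C (adjusted p = 0.0679 and 0.0667). The after-dose level difference was below 0 in all settings, from -1.76 to -0.66, and passed in 8 of the 24.

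Egr1, an immediate early transcription factor induced by growth factor and antigen receptor signals, was at 326, 221 and 161 in saline and 564, 659 and 1190.0 in early single-dose tumors. It was at 362, 294 and 257 in late single-dose tumors and 373, 289 and 247 in repeat-dose tumors, groups that covered almost the same range. Its first-dose effect was 1.77 ± 0.34 (adjusted p = 0.00507, and 0.0781 and 0.0766 with total-count and positive-control scaling). The second-dose effect had an interval from -0.75 to 0.75. The difference was -1.77 ± 0.48 (adjusted p = 0.327), with a starting-level difference of 0.37 ± 0.34 (adjusted p = 0.426) and an after-dose level difference of -1.40 ± 0.34 (adjusted p = 0.0751, unadjusted p = 0.00196). Myc, a driver of cell growth, was also low after the second dose, at 725, 653 and 428 against 1914, 1355 and 1319 after the first. Its after-dose level difference was -1.34 ± 0.35 (adjusted p = 0.0801), but its difference of the dose effects was only -0.84 ± 0.48 (adjusted p = 0.637).

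In the list of inhibitory receptors and ligands the median difference was -0.36, with 4 of 24 members negative at an unadjusted p under 0.05, a share near the 10.4% of all genes. Pdcd1, the receptor PD-1, had a difference of -0.57 ± 0.49 and Lag3, a receptor that dampens T cells, one of -0.46 ± 0.68, with intervals from -1.66 to 0.52 and from -1.97 to 1.05. In the apoptosis list 5 of 19 members were negative at that threshold, beside the same 10.4%. Among them Bid, which carries death receptor signals to mitochondria, was at 289, 258 and 261 in saline, 636, 642 and 528 in early single-dose, 474, 394 and 650.0 in late single-dose and 608, 593 and 527 in repeat-dose tumors. The after-dose levels overlapped, the difference was -0.97 ± 0.28 (adjusted p = 0.332), and the starting level was higher by 0.91 ± 0.20 (adjusted p = 0.00838, and 0.702 with TMM scaling).

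Many myeloid genes had a raised start. None passed the test of the after-dose level in the edgeR fit, as was so for all 729 tested genes (0%). In the macrophage and monocyte list the median starting-level difference was 2.05 and the median after-dose level difference 1.26. The latter was above 0 in all 30 tested members, beside 622 of all 729 genes. The median difference of the dose effects was -0.73. The starting level passed in 22 of the 30, beside 39.1% of all genes, in 13 with TMM and 2 with positive-control scaling, and in 5, 8 and 5 without saline tumor B, saline tumor C or late single-dose tumor C. The summed macrophage markers Cd68, Emr1 and Csf1r ran from 586 to 2408 in saline, from 2840 to 5028 in early single-dose, from 3381 to 8362 in late single-dose and from 5238 to 15049 in repeat-dose tumors. The part of this marker rise in the genes of the list was not tested.

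Marco, a scavenger receptor of macrophages, was at 51.4, 38.3 and 3.56 in saline, 687, 1099 and 349 in early single-dose, 1964, 1087 and 1694 in late single-dose and 5607, 5387 and 864 in repeat-dose tumors. The saline tumors were the lowest 3, and repeat-dose tumor C was far below the other 2 of its group. The starting level was higher by 5.67 ± 1.01 (adjusted p = 0.0069) and the after-dose level by 2.47 ± 0.86 (adjusted p = 0.146), for a difference of -3.20 ± 1.20 (adjusted p = 0.374). Fpr2, a formyl peptide receptor of phagocytes, had a starting-level difference of 3.44 ± 0.45 (adjusted p = 0.00498) and an after-dose level difference of 1.95 ± 0.42 (adjusted p = 0.0619).

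Nos2, the inducible nitric oxide synthase, had 4.11 ± 0.73 (adjusted p = 0.0069) and 2.58 ± 0.68 (adjusted p = 0.0816) for the same parts, and a difference of -1.53 ± 0.92. Arg1, which breaks down arginine, had a difference of -0.36 ± 1.12 from parts of 2.84 ± 0.85 (adjusted p = 0.0247) and 2.48 ± 0.84 (adjusted p = 0.135). S100a8, an alarmin of neutrophils, had a difference of -0.07 ± 0.91, with a starting level higher by 3.09 ± 0.70 (adjusted p = 0.00969) and an after-dose level higher by 3.02 ± 0.69 (adjusted p = 0.0619). The intervals of these last 2 differences, from -2.84 to 2.13 and from -2.09 to 1.96, were wide. Their raised start did not pass without saline tumor B (adjusted p = 0.0926 for Arg1 and 0.0522 for S100a8), and for Arg1 also without saline tumor C (0.0788), without late single-dose tumor C (0.104) or with positive-control scaling (0.09). Lcn2, a secreted protein that binds bacterial iron carriers, had a difference of -3.11 ± 1.12 and an after-dose level difference of -0.62 ± 0.77.

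Kdr, Itga4 and Atg5 had positive differences at an unadjusted p under 0.05, and none of them passed the adjusted test. Kdr, the main receptor of vascular endothelial growth factor on vessels, was at 288, 259.5 and 201 in saline, 85.4, 99.0 and 85.5 in early single-dose, 208, 197 and 157 in late single-dose and 134, 121 and 119 in repeat-dose tumors. Both groups taken 2 days after a dose were lower than their starting groups with no overlap. Of all 729 genes, 27 were so after the first dose and 12 after the second. The first-dose effect was -1.47 ± 0.21 (adjusted p = 0.00316), the second-dose effect was -0.58 ± 0.21 (adjusted p = 0.425, unadjusted p = 0.0195), and the difference was 0.89 ± 0.30 (adjusted p = 0.339). Its starting level differed by -0.41 ± 0.21 (adjusted p = 0.14) and its after-dose level by 0.47 ± 0.21 (adjusted p = 0.205). The summed endothelial markers Pecam1, Cdh5, Kdr and Tek ran from 678 to 1051 in saline, from 479 to 797 in early single-dose, from 808 to 1114 in late single-dose and from 682 to 1029 in repeat-dose tumors.

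Itga4, the alpha chain of an integrin by which leukocytes and some tumor cells adhere, was at 920.4, 901 and 989 in saline, 374, 371 and 351 in early single-dose, 499.9, 468 and 503 in late single-dose and 555, 342 and 239 in repeat-dose tumors. The saline tumors were above all 9 treated tumors. The first-dose effect was -1.36 ± 0.26 (adjusted p = 0.00446) and the difference 0.99 ± 0.36 (adjusted p = 0.373). The start was lower, with a difference of -0.93 ± 0.25 (adjusted p = 0.0179, and 0.059, 0.0632 and 0.0583 without saline tumor B, saline tumor C or late single-dose tumor C), and the after-dose level differed by 0.06 ± 0.25. Tfrc, the transferrin receptor, had -0.87 ± 0.20 after the first dose (adjusted p = 0.00883, and 0.0552 without saline tumor B) and a difference of 0.61 ± 0.28. Atg5, a component of autophagy, had a difference of 0.55 ± 0.23 from effects of -0.15 ± 0.16 and 0.39 ± 0.16, neither of which passed.

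Lists for other cell types had a median difference near 0. The median difference was -0.05 in the B cell and plasma cell list, -0.03 in the regulatory T cell list, 0.04 in the dendritic cell list and -0.11 in the mast cell and eosinophil list, against -0.22 for all genes. At most 2 members of each list had an unadjusted p under 0.05, beside 10.8% of all genes. Foxp3, the regulatory T cell factor, had a difference of 0.02 ± 1.02 at scaled counts of 2.54 to 38.9 over the 12 tumors, and at these low counts its interval ran from -2.24 to 2.29. Ms4a1, the B cell antigen CD20, had a difference of 0.03 ± 0.68. The type I interferon response list, made of antiviral genes of which many also respond to interferon-gamma, had a median difference of -1.08 and a median after-dose level difference of 0.23.

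**Figure D4:**
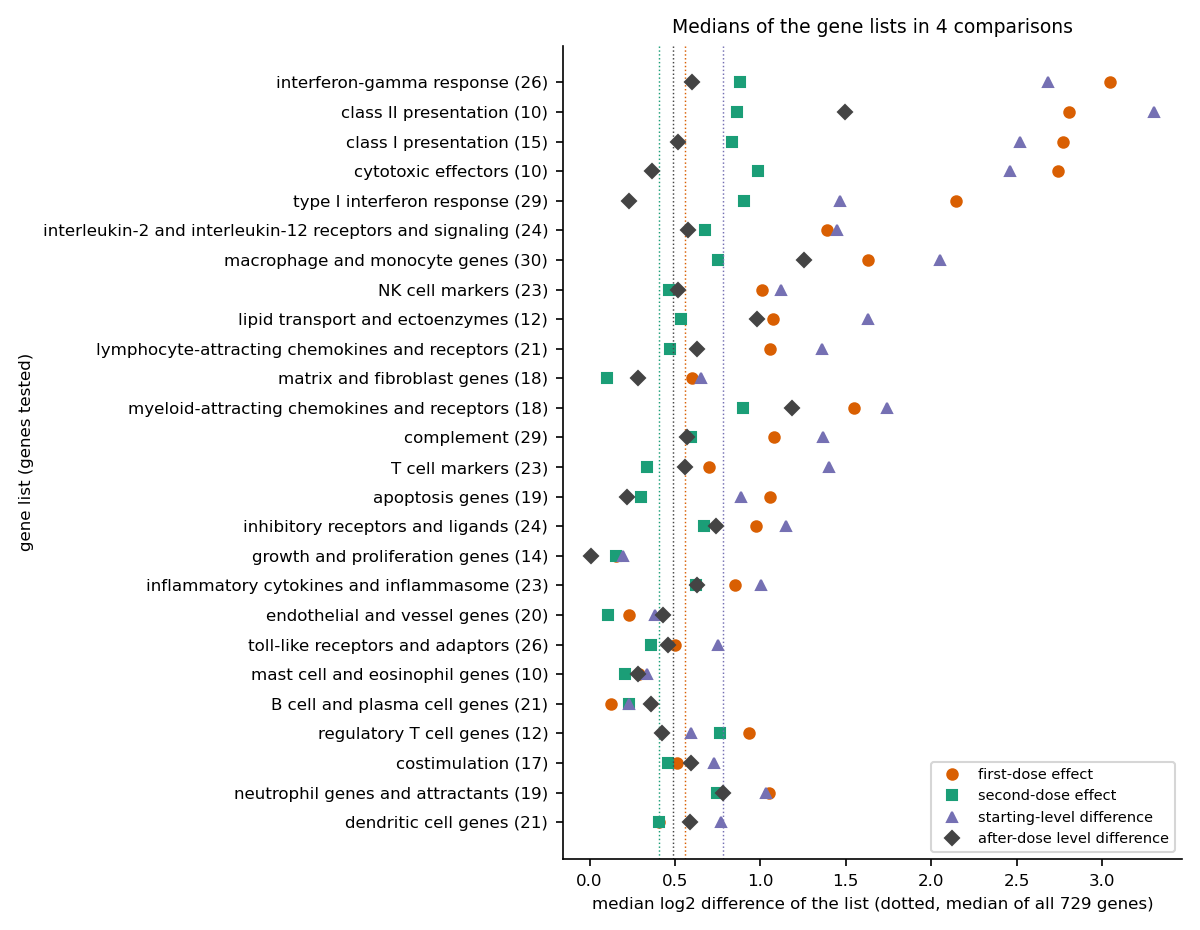
Median log2 differences of 26 gene lists in the 4 comparisons that make up the contrast, one row per list with the number of genes tested, and the medians of all 729 genes as dotted lines. The interferon-gamma list has a first-dose median of 3.04 and a starting-level median of 2.68 but a second-dose median of 0.88, and the dendritic cell list at the bottom has first-dose and second-dose medians of 0.41.

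How the contrast divides into its parts depended on what the counts were scaled by. The median starting-level difference of all 729 genes was 0.78 with the housekeeping probes and -0.05 with the positive controls, and the median after-dose level difference 0.49 and -0.54. Relative to the medians of all genes, the starting part was the larger in 62 of the 76 genes with a negative difference, and the after-dose level was below the median in 40. With TMM scaling the starting part was larger in 60 and the after-dose level below 0 in 47, with total counts in 56 and 54, and with the positive controls in 55 and 65. Over these genes the median starting-level difference was thus 1.38 or more under each scaling. Their choice by a difference that contains this part favors a large value of it, so the medians are a description only. The median after-dose level difference was above 0 with housekeeping probes and below 0 with TMM, total-count and positive-control scaling.

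**Figure D5:**
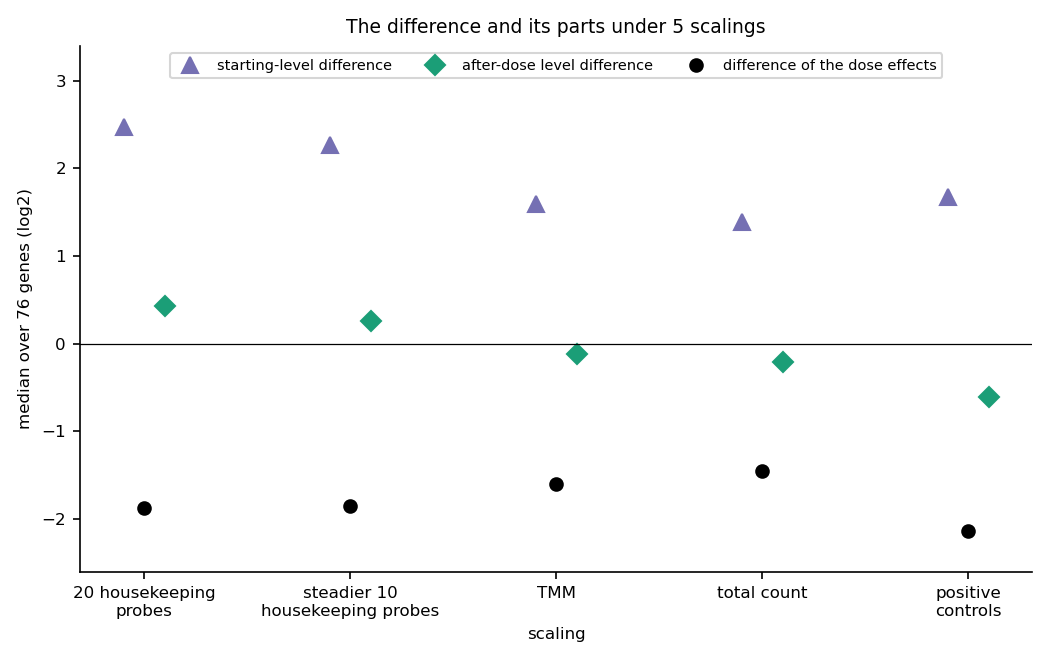
Medians over the 76 genes with a negative difference under 5 scalings of the counts, on the log2 scale. The starting-level difference lies between 1.38 and 2.47, the after-dose level difference moves from 0.43 to -0.60, and the difference of the dose effects lies between -2.13 and -1.45.

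A difference of log values compares folds, so the scaled counts were also subtracted without logs, an alternative chosen after seeing the data. Of the 76 genes, 63 still had a smaller second step, but it was beyond 2 SE in 14. Cxcl9 rose by 5167 ± 800 (SE) scaled counts after the first dose and by 4328 ± 3040 after the second, a difference of -839 ± 3143. Cd274 had a larger second step, 4759 ± 2145 against 3632 ± 476. Tcf7 (-397 ± 31.8), Psmb10 (-2178 ± 860) and Egr1 (-570 ± 206) had a difference beyond 2 SE on this scale, and so did Kdr (97.3 ± 30.5), Itga4 (460 ± 98.0) and Atg5 (173 ± 46.8).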

How the data were processed

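RNA of 12 flank tumors was counted with the NanoString nCounter mouse PanCancer Immune panel, in which color-coded probes are counted without amplification. The deposited raw counts per probe were used as the authors gave them, per the file headers, and the authors' normalized signal per probe, which equalled the raw count times 1 factor per sample within 0.00882%, served as an alternative. The sources used here do not give the version of the authors' software.

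Counts were scaled by the geometric mean of 20 housekeeping probes. Of 750 genes, 729 exceeded the mean plus 2 SD of the negative controls in at least 3 tumors. edgeR 4.0.16 (quasi-likelihood test, robust, 1 fit of the 4 groups, R 4.3.3) gave log2 differences, SE, 95% intervals and p-values, which were adjusted by Benjamini-Hochberg over the 729 genes; changes are called at an adjusted p under 0.05. DESeq2 1.42.0, limma 3.58.1 on log2(value + 1) and log2(value + 10), other scalings and filters, and leaving out each tumor were alternatives, 24 in all. The code was tested on simulated data. Total counts ran from 392596 to 1232726, and replicate tumors differed by 24.2 to 153.5 times the counting noise (chi-square per degree of freedom), so the spread between tumors sets the precision. The labels do not say more of the replicates than that they are separate samples.

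Named genes were the 10 of smallest p in each direction of the difference whose highest group averaged 50 scaled counts or more, the 3 of smallest p in each of 26 lists, and a set of cytokine, receptor and cell type genes. The members and lists were chosen with earlier results of these data known. Same-lettered tumors correlated between -0.65 and 0.60 in their deviations from the group means, above 0.1 in 8 of 18 pairs, so the letters were not taken to pair tumors. Promoters came from RefSeq (GRCm38.p6), to which 746 of 770 gene probes were matched.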

Additional observations from a re-analysis of the deposited data

How the results depend on the processing

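The difference of the dose effects had 0 calls; 1 with TMM scaling, 5 with total-count scaling, 1 with the steadier 10 housekeeping probes, 1 among the genes above background in all 12 tumors, 18 and 37 by DESeq2 with housekeeping and its own size factors, and 0 to 7 when 1 tumor was left out. The starting part was the larger in 1, 5, 16 and 35 of the calls with TMM, total-count, DESeq2 housekeeping and DESeq2 own scaling, and in 0 to 7 when 1 tumor was left out. The first-dose effect had 87 calls with positive-control scaling in place of 227 and 89 to 268 when 1 tumor was left out, and the starting-level difference 39 in place of 286 and 86 to 361. The second-dose effect had 3 and 10 calls by DESeq2 with housekeeping and its own factors, and 0 to 100 when 1 tumor was left out. The after-dose level difference had 19 (TMM), 28 (total count), 3 (steadier probes), 79 and 57 (DESeq2, housekeeping and own factors), 2 and 5 (limma, pseudocounts 1 and 10) and 18 calls (above background in all 12 tumors), and 0 to 49 when 1 tumor was left out. The cause of these shifts was not tested. With the letter as a replicate block the difference had 0 calls, the first-dose effect 226 and the starting-level difference 275. Of 2247 values of the difference of the 94 named genes in other settings, 2119 had the same sign and stayed above the threshold, 57 had the same sign and passed it, and 71, none of them past it, had the other sign. The 3 tumors per group, the low counts of Foxp3 and Il10, and the missing saline group at 8 days limit what the contrast can resolve.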
